A study of Mus musculus with 10 samples.

Results

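Genomic imprinting leaves a gene expressed mainly from the copy inherited from the mother or mainly from the copy inherited from the father, and many imprinted genes act on fetal growth. The 10 genes described here are H19, Igf2, Meg3, Rian, Dlk1, Peg3, Mest, Plagl1, Cdkn1c and Grb10, a hand-picked set of imprinted growth genes among the 26401 genes of a count table of mouse fibroblasts. Of the 10, 9 had a row in the table and Meg3 was not analysed here. The default low-count filter passed 4 of them, H19, Mest, Cdkn1c and Grb10. They passed through the clones in which they were high, so nothing about all members is read from these 4.

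Polyadenylated RNA came from 10 immortalized mouse embryonic fibroblast lines, all heteroplasmic for the mitochondrial DNA variant m.5024C>T on the C57Bl/6N background and grown untreated in high-glucose medium with serum and uridine. The 5 high heteroplasmy lines, with a high share of mutant mitochondrial genomes, are called high 1 to high 5. The 5 low heteroplasmy lines are low 1 to low 5, and each line has its own clone number. The sources used here do not give the mutant share or the embryonic age of each line. Each library therefore stands for 1 clone, and a gene's state in a library is that clone's state at 1 harvest. The submitters name the lines of a group as biological replicates. Counts per gene carry no parental allele, so loss of imprinting, silencing and a change in level could not be separated. Likewise, in these bulk libraries a smaller share of expressing cells and less RNA per cell cannot be told apart.

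Imprinted genes lie in clusters, and a stretch of DNA methylated on the copy from 1 parent sets which copy is active. On distal mouse chromosome 7, Igf2 is expressed from the paternal copy and its neighbour H19 from the maternal copy. Further along is a cluster with Cdkn1c, expressed from the maternal copy. On distal chromosome 12, Dlk1 is paternal while Meg3 and Rian are maternal noncoding RNAs. Many of these genes are strongly expressed in the embryo and the fetal mesenchyme and decline after birth.

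Total counts on genes ran from 19264064 to 28208576 in the high libraries and from 17318372 to 24967748 in the low libraries. Low 2 and low 3 stood apart, with 40901 and 8009 CPM (counts scaled by library size with trimmed mean of M values, TMM) of the ribosomal RNA-like transcript Gm42418, against 744 to 1152 CPM in the high libraries and 1147 to 1614 CPM in the other low libraries. Of 11 fibroblast markers, 9 had at least 1 CPM in all 10 libraries, Pdgfra had it in 9 and Thy1 in 3. The 7 epithelial markers summed to 111 to 386 CPM in the high libraries and 453 to 678 CPM in the low libraries, at least 96.4% of it Krt19. The summed endothelial markers were at most 1.42 CPM in high and 1.71 CPM in low libraries, and the summed hepatoblast and yolk sac markers at most 0.203 CPM in high and 0.217 CPM in low libraries. Muscle markers summed to 4.16 to 24.6 CPM in high and 2.34 to 5.35 CPM in low libraries, and neural markers to 39.2 to 182 CPM in high and 35.0 to 93.5 CPM in low libraries. Trophoblast markers summed to at most 0.0544 CPM in any library, and the 1 pluripotency marker analysed, Nanog, reached at most 0.601 CPM in high and 0.853 CPM in low libraries. Blood markers summed to 11.7 to 89.8 CPM in high and 12.3 to 25.995 CPM in low libraries, all of it Cd68, with Ptprc at 0. The part of these differences in the members' levels was not tested.

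The promoter windows of Grb10, Mest and Plagl1 are shown because these genes were on in some clones and not detected in others. H19 and Cdkn1c shared this pattern, but the sources used here gave no window for them. Promoters of imprinted genes are often rich in CG pairs, the bases that carry imprint methylation. Each window runs from 250 bases before to 50 bases after an annotated start, in the direction of transcription, from RefSeq on GRCm38.p6, with CG in capitals. They lie at chr11:12037371-12037670 (minus strand, Grb10), chr6:30737800-30738099 (plus strand, Mest) and chr10:13090582-13090881 (plus strand, Plagl1).
Grb10: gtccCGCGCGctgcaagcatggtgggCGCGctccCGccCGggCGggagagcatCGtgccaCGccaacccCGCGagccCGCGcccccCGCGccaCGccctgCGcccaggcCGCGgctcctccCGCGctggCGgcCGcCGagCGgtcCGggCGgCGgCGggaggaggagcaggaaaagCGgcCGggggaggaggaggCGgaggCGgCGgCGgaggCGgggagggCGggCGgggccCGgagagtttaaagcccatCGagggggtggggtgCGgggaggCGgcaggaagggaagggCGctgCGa
Mest: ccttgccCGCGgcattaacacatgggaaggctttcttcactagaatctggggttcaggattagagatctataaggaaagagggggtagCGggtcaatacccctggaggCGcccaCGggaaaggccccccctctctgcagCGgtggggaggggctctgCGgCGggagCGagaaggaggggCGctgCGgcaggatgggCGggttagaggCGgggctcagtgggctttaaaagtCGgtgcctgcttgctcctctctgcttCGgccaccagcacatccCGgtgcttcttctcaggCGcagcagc
Plagl1: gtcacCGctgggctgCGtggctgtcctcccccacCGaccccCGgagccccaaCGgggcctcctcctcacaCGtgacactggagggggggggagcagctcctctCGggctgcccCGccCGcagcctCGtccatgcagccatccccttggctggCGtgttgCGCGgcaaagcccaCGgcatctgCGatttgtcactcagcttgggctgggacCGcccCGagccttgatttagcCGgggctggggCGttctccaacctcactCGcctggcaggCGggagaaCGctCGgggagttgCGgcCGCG
RefSeq lists further starts, and for Grb10 and Mest the starts shown are those whose windows held the most CG pairs. The Grb10 window shown held 45 CG pairs, more than 98.1% of the 32851 mouse promoter windows of this length, whose median was 7. The Plagl1 window held 26 CG pairs (more than 83.1% of windows) and the Mest window shown 17 (more than 68.6%). The hexamer TGCCGC, which the imprint-keeping zinc finger protein ZFP57 binds when methylated, was searched on both strands (as TGCCGC or GCGGCA). It occurred 1 time in the Grb10 window shown, 2 times in the Mest window shown and 1 time in the Plagl1 window, and 11.6% of all windows held it. The hexamer itself holds a CG pair, and the windows shown have more CG pairs than most. The share over all windows is therefore not the rate to be expected for them. Another Grb10 window held 9 CG pairs and another Mest window 8, both without TGCCGC. Members on in no clone varied as well. The Peg3 window (chr7:6730370-6730669, minus strand) held 13 CG pairs and no TGCCGC. For Igf2, a window with 14 CG pairs held TGCCGC 1 time. Its other windows, with 24, 7 and 2 CG pairs, had none. The Dlk1 window held 9 CG pairs and the Rian window 0, both without TGCCGC. These are matches of letters only. Methylation was not measured, and gene counts do not tell which start a clone used.

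Each member was called on in a library at 1 CPM or more, at trace level below 1 CPM with more than 3 counts, and not detected at 0 to 3 counts. The 3 counts equal 0.0998 to 0.171 CPM, depending on the library. By this rule 5 members were on in at least 1 clone: Grb10, Cdkn1c, H19, Mest and Plagl1. All 5 were also not detected in at least 1 other clone. Over all genes on in at least 1 library, 1361 of 13471 (10.1%) had this pattern. That share covers genes of every level, and the members were chosen with earlier results of these data known. No excess among the members is read from it. No member was on in all 10 clones, and no clone had all members on. The number of members on was 1, 4, 1, 3 and 2 in high 1 to high 5, and 3, 2, 3, 5 and 4 in low 1 to low 5.

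**Figure D1:**
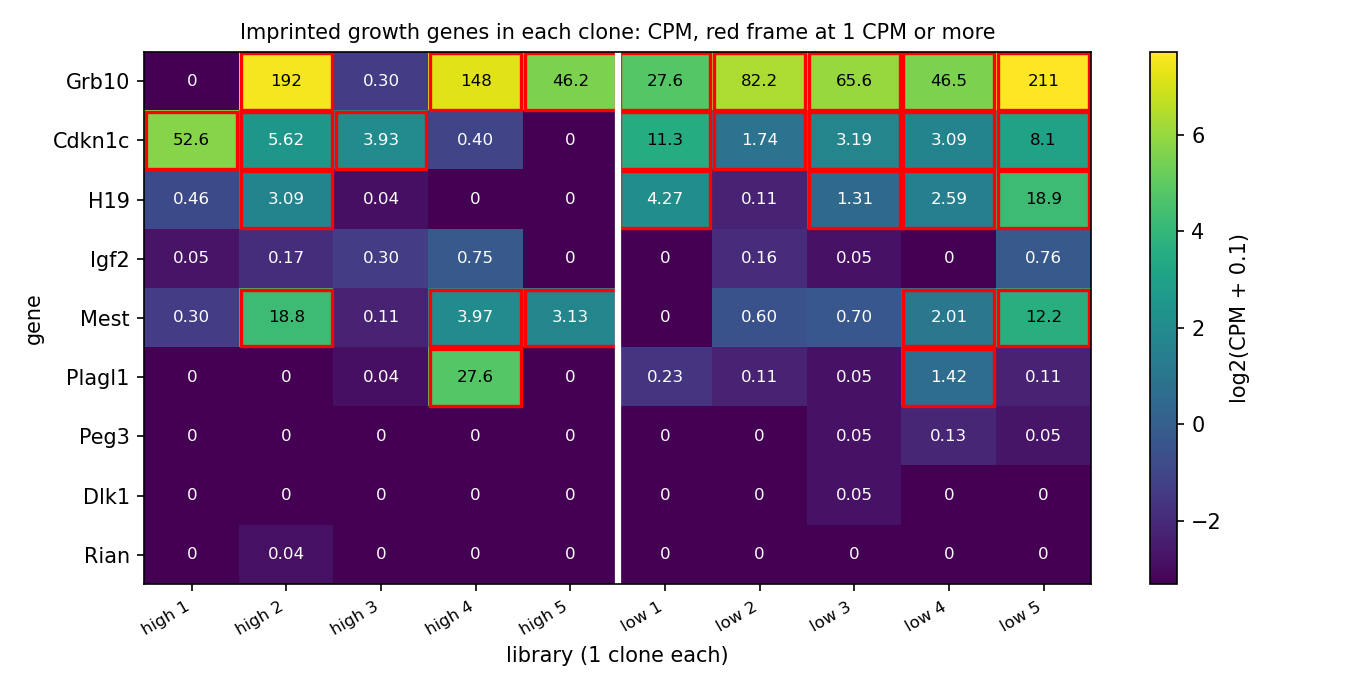
Heat map of the 9 analysed members (rows) in the 10 libraries (columns, high clones left of the white line, low clones right), coloured by log2(CPM + 0.1) and printed with CPM. A red frame marks 1 CPM or more. Grb10 is framed in 8 clones with 0 in high 1, and Peg3, Dlk1 and Rian have no frame.

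Grb10 encodes an adaptor protein that binds the insulin and IGF1 receptors and restrains their signalling, and it had the highest mean level per kilobase of the members. The gene (ENSMUSG00000020176) lies at chr11:11930508-12038683 on the minus strand of GRCm38. It had 0, 192, 0.302, 148 and 46.2 CPM in high 1 to high 5, against 27.6, 82.2, 65.6, 46.5 and 211 CPM in low 1 to low 5. The counts behind these values were 0, 4484, 8, 3731 and 1389 in the high libraries and 485, 1514, 1400, 1113 and 3886 in the low libraries. All 5 low clones and 3 high clones had Grb10 on, while high 1 had none and high 3 only a trace. The groups overlapped. The highest library, low 5, was at least 1389-fold above a floor of 3 counts in high 1. On a log2 CPM scale with a prior count of 0.5, the span between its highest and lowest library was 13.2, and it ranked 1 of the 12964 tested genes, whose median span was 1.29. It also ranked 1 with a prior count of 2, where the span was 11.2.

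Cdkn1c encodes p57Kip2, an inhibitor of cyclin-dependent kinases that slows the cell cycle. It (ENSMUSG00000037664) lies at chr7:143458339-143461050 on the minus strand. It had 52.6, 5.62, 3.93, 0.397 and 0 CPM in high 1 to high 5, against 11.3, 1.74, 3.19, 3.09 and 8.10 CPM in low 1 to low 5. All 5 low clones and 3 high clones had it on, high 4 had a trace and high 5 had 0 counts. High 1 was above every other library and high 5 below every other, so the low clones lay inside the range of the high clones. High 1 exceeded a floor of 3 counts in high 5 by at least 527-fold. The log2 span was 11.2, a size reached by 0.154% of the tested genes. With a prior count of 2 the span was 9.21, and its rank among the tested genes moved from 20 to 27.

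Cdkn1c and Grb10 were low in different clones. The clones with the lowest Grb10 were high 1 and high 3, and both had Cdkn1c on. The clones with the lowest Cdkn1c were high 4 and high 5, and both had Grb10 on. Beyond these members, 16 other genes were on in the same 8 clones as Grb10, and 10 other genes in the same 8 clones as Cdkn1c. Genes on in at least 8 clones and not detected in a given clone numbered 7, 1, 24, 6 and 26 in high 1 to high 5, and 4, 10, 8, 2 and 4 in low 1 to low 5.

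H19 is a noncoding RNA that hosts a microRNA and lies next to Igf2. It (ENSMUSG00000000031) is at chr7:142575529-142578143 on the minus strand. It had 0.456, 3.09, 0.0378, 0 and 0 CPM in high 1 to high 5, against 4.27, 0.109, 1.31, 2.59 and 18.9 CPM in low 1 to low 5. It was on in 1 high clone and 4 low clones, and the groups overlapped because low 2 had 2 counts and high 2 had 72. The highest library, low 5, was at least 158-fold above a floor of 3 counts in high 4, the higher of the floors of the 2 clones at 0.

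Igf2 encodes insulin-like growth factor 2, the fetal growth factor of this locus. It had 0.0507, 0.172, 0.302, 0.755 and 0 CPM in high 1 to high 5, against 0, 0.163, 0.0469, 0 and 0.761 CPM in low 1 to low 5. The values rest on 0 to 19 counts per library. Igf2 was on in no clone, at trace level in 3 high clones and 1 low clone, and below the filter for testing. Clones at trace level for Igf2 were high 2, high 3, high 4 and low 5, and of these high 2 and low 5 had H19 on.

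Mest, also called Peg1, encodes a protein with an alpha/beta-hydrolase fold and is expressed from the paternal copy. It (ENSMUSG00000051855) lies at chr6:30723547-30748465 on the plus strand. It had 0.304, 18.8, 0.113, 3.97 and 3.13 CPM in high 1 to high 5, against 0, 0.597, 0.703, 2.01 and 12.2 CPM in low 1 to low 5. It was on in 3 high and 2 low clones. Low 5 was the highest low clone and high 2 the highest of all, and low 1 had 0 counts. High 2 stood at least 110-fold above a floor of 3 counts in low 1.

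Plagl1, also called Zac1, encodes a zinc finger transcription factor known to act on other imprinted genes in mouse. It (ENSMUSG00000019817) lies at chr10:13060504-13131694 on the plus strand. It had 0, 0, 0.0378, 27.6 and 0 CPM in high 1 to high 5, against 0.228, 0.109, 0.0469, 1.42 and 0.109 CPM in low 1 to low 5. Nearly all of its signal came from high 4, with 695 counts, and low 4 followed with 34 counts. No other library had more than 4 counts. Plagl1 was below the filter and was not tested.

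Peg3, a paternally expressed zinc finger gene, had 0 counts in all 5 high clones and 0, 0, 1, 3 and 1 counts in low 1 to low 5. Dlk1, a transmembrane protein of the Notch ligand type that holds back fat cell differentiation, had 1 count, in low 3. Rian, a maternal noncoding RNA that hosts small nucleolar RNAs, had 1 count, in high 2. All 3 were not detected in every clone, which at this depth allows up to 0.0998 to 0.171 CPM by library.

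Per kilobase of exon, the mean levels of the members kept a similar order in both groups apart from H19. In the high clones they were 8.52 CPM per kb for Grb10, 6.14 for Cdkn1c, 1.34 for Mest, 0.707 for Plagl1, 0.291 for H19 and 0.0447 for Igf2. In the low clones they were 9.53 CPM per kb for Grb10, 2.69 for Cdkn1c, 2.21 for H19, 0.788 for Mest, 0.0489 for Plagl1 and 0.0339 for Igf2. Neighbours in these orders were not separated by their spread between clones, which was near or above the mean for most members. In CPM, Grb10 averaged 77.4 ± 88.3 in high and 86.6 ± 72.6 in low clones, and Plagl1 averaged 5.53 ± 12.3 in high and 0.383 ± 0.584 in low clones (SD, n = 5 each).

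**Figure D2:**
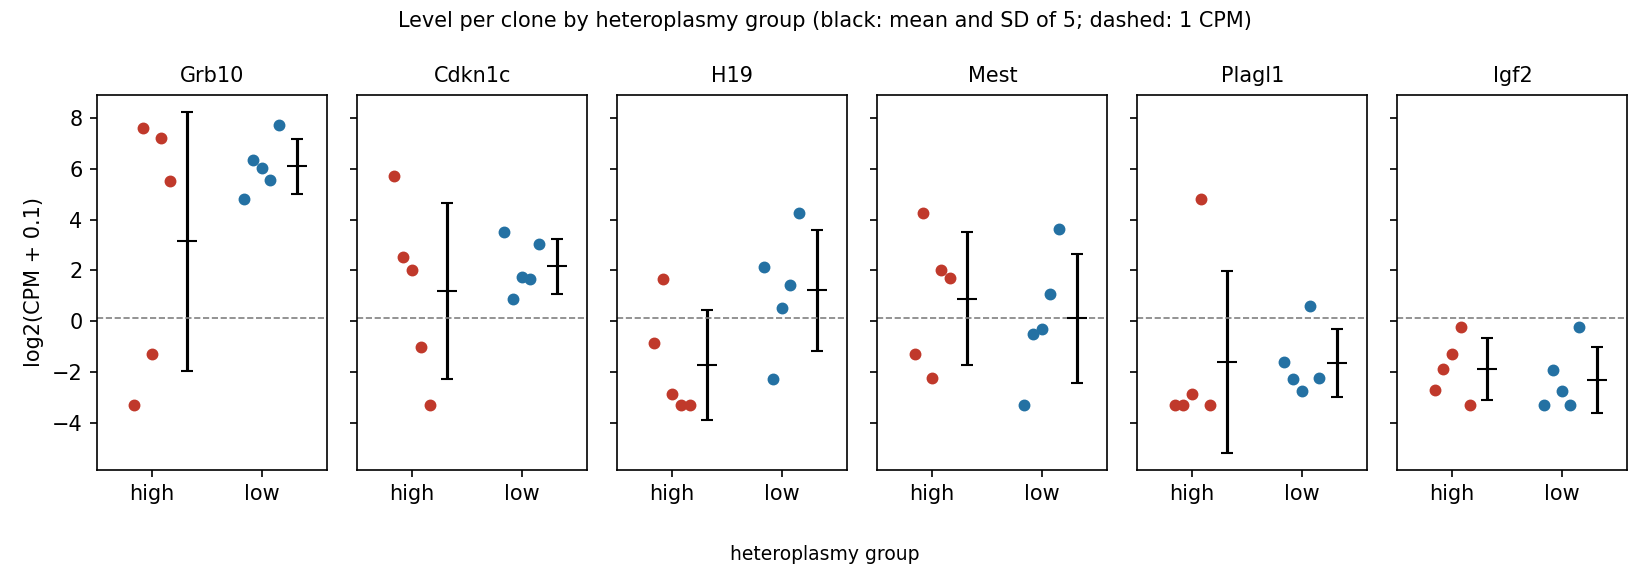
Level of 6 members on the log2(CPM + 0.1) scale, 1 point per clone (red for high, blue for low), with the mean and SD of the 5 log2 values in black beside each group. The dashed line is 1 CPM. The high and low points overlap in all 6 panels, and the bars are wide in the high group for Grb10, Cdkn1c and Plagl1.

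The comparison of high with low heteroplasmy was tested by edgeR's quasi-likelihood test across all genes that passed the filter. It called 630 of 12964 genes at an adjusted p (Benjamini-Hochberg) under 0.05, which is 4.86%, and 0 of the 4 tested members. Of the 630, 258 were higher (1.99%) and 372 lower (2.87%) in the high clones. An unadjusted p under 0.05 was reached by 2804 genes (21.6%) and by 0 members. DESeq2 called 11.4% of genes, limma-voom 5.1% and edgeR with a chromosome offset 1.27%, and each called 0 members. H19 averaged 0.717 ± 1.34 CPM in high and 5.43 ± 7.67 CPM in low clones (SD, n = 5 each). Its log2 fold change was -2.92 with an SE of 1.51 and an edgeR adjusted p of 0.294. Cdkn1c averaged 12.5 ± 22.5 CPM in high and 5.49 ± 4.06 CPM in low clones, and its log2 fold change was 1.19 with an SE of 1.30 (edgeR adjusted p = 0.659). Its sign rested on high 1: without that clone the log2 fold change was -1.14. Mest averaged 5.27 ± 7.78 CPM in high and 3.11 ± 5.15 CPM in low clones, with a log2 fold change of 0.76, an SE of 1.38 and an edgeR adjusted p of 0.808. Without high 2 the value for Mest was -0.71. The log2 fold change of Grb10 was -0.16 with an SE of 1.30 (edgeR adjusted p = 0.963). Leaving out 1 clone at a time moved it between -0.83 and 0.48, and it was -3.24 with limma-voom and -2.17 with the replicate number as a block, neither of which called it. With standard errors of 1.30 to 1.51 on the log2 scale, a difference of several fold in these genes would not have been detected, so these p-values do not show equal levels. Among all tested genes, 7.16% had groups that did not overlap, and the number was 0 among the members. The p-values set the difference between the groups against the spread between these clones.

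The spans of H19 and Mest were both 9.73 and that of Plagl1 was 10.3. These spans were reached by 0.471% (H19), 0.478% (Mest) and 0.293% (Plagl1) of the tested genes. They depend on the prior count, because each starts from a library with 0 counts. With a prior count of 2, H19 and Mest both had a span of 7.73. Their ranks among the tested genes moved from 61 to 94 (H19) and from 62 to 95 (Mest).

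Several genes around the members were on in all clones. Fignl1, a gene of DNA repair at 121.5 kb from Grb10, had 223, 148, 129, 139 and 120 CPM in high 1 to high 5, against 189, 131, 126, 128 and 167 CPM in low 1 to low 5. High 1, without a Grb10 count, was thus the clone with the most Fignl1. Cobl, an actin nucleator at 197.9 kb on the other side, had 0, 0.0859, 0, 0.477 and 1.16 CPM in high 1 to high 5, against 0.569, 0.217, 0.0937, 1.13 and 4.30 CPM in low 1 to low 5. Like Grb10, it was lowest in high 1 and high 3 and highest in low 5. But Cobl was also not detected in high 2 and low 3, where Grb10 had 192 and 65.6 CPM. The log2 fold change of Cobl was -1.81 (edgeR adjusted p = 0.428). Ddc, itself imprinted in the embryonic heart, reached at most 0.304 CPM in the high clones and 0 CPM in the low clones.

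At the Mest locus, Copg2, a coat protein gene that overlaps the end of Mest on the other strand, was higher in the high clones, at 51.7 ± 12.2 CPM, against 26.9 ± 3.23 CPM in the low clones (SD, n = 5 each). Its groups did not overlap, the log2 fold change was 0.94 with an SE of 0.18, and the edgeR adjusted p was 0.021. The call held in 8 of 10 fits that left out 1 clone, with an adjusted p of 0.0525 without low 3 and 0.0506 without low 4. Chromosome 6 as a whole stood 0.45, 0.27, 0.12, -0.04 and 0.18 from the gene medians (log2) in high 1 to high 5, against -0.13, -0.14, -0.06, -0.06 and -0.10 in low 1 to low 5. With each library's chromosome shift taken out, Copg2 kept a log2 fold change of 0.63 with an edgeR adjusted p of 0.0751. The libraries were made with a stranded kit, but the sources used here do not give the strand setting of the counting, so reads in the stretch shared with Mest could be assigned to either gene. Cep41, a centrosome gene at 29.8 kb, had 12.8 ± 3.81 CPM in high and 7.60 ± 0.638 CPM in low clones and did not pass (log2 fold change 0.75, edgeR adjusted p = 0.0888), although DESeq2 gave an adjusted p of 0.026. Cpa1 and Cpa5 had 0 counts in all clones and Cpa4 reached at most 0.129 CPM in high and 0.489 CPM in low clones.

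Around Plagl1, the splicing factor gene Sf3b5 at 51.3 kb had 97.4 to 197 CPM in high and 72.0 to 121 CPM in low clones, and high 4 was its highest clone. Chromosome 10 stood 0.34 above the gene medians (log2) in high 4, and 0.42 above them in high 5, where Plagl1 had 0 counts. Ltv1, a ribosome assembly gene at 46.4 kb, had 47.6 to 111 CPM in high and 38.9 to 100.8 CPM in low clones. Fuca2, a fucosidase gene, had 47.0 to 161 CPM in high and 52.1 to 141 CPM in low clones. Phactr2 and Aig1 were on in some clones and not detected in others, with at most 6.19 CPM (Phactr2) and 1.89 CPM (Aig1) in high and 1.09 CPM (Phactr2) and 5.52 CPM (Aig1) in low clones. Of the Plagl1 list 4 genes were tested and of the Grb10 list 2, and none passed (4.86% of all tested genes did).

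On distal chromosome 7, of 18 listed neighbours 16 were analysed and 9 tested, and 0 were called (4.86% of all tested genes were). Mrpl23, a mitochondrial ribosomal protein gene 34.8 kb from H19, had 4.76 to 10.96 CPM in high and 7.36 to 9.52 CPM in low clones. Cd81, a tetraspanin gene, had 113 to 356 CPM in high and 278 to 337 CPM in low clones. Nap1l4, a histone chaperone gene on the far side of Cdkn1c, had 81.9 to 128 CPM in high and 97.4 to 117 CPM in low clones. High 5, with 0 counts of both H19 and Cdkn1c, was the lowest high clone for these 3 genes. In high 5, chromosome 7 as a whole stood -0.45 from the gene medians (log2), against -0.05 to 0.07 in the other 9 clones. Of the other tested neighbours, Lsp1, Tssc4, Cars and Osbpl5 were on in all 10 clones. High 5 was also the lowest high clone for Tssc4 (36.6 CPM) and Cars (95.7 CPM). It was not the lowest for Lsp1, at 5.09 CPM against 3.85 CPM in high 1. Osbpl5 had 40.7 CPM in high 5, within 31.4 to 45.7 CPM in the high clones. Nor was high 5 the lowest for Kcnq1ot1 and Phlda2, given below.

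Of the imprinted neighbours, Kcnq1ot1, the paternal noncoding RNA of the Cdkn1c cluster, had 12.3, 3.09, 1.66, 1.99 and 3.52 CPM in high 1 to high 5, against 12.5, 6.02, 3.00, 11.7 and 4.46 CPM in low 1 to low 5. It was on in every clone, including high 5. Phlda2, a maternal gene that limits placental growth in mouse, had 3.65, 0.429, 0.0378, 0.636 and 0.266 CPM in high 1 to high 5, against 4.10, 1.57, 0.609, 3.13 and 2.12 CPM in low 1 to low 5. High 1 was the highest high clone for Phlda2, Kcnq1ot1 and Cdkn1c. Slc22a18 reached 4.06 CPM in high clones, also in high 1, and 0.544 CPM in low clones. Among the others, Ascl2, Kcnq1, Th and the antisense transcript Igf2os were at or near 0.

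On distal chromosome 12, Dlk1 and Rian lay between genes that were read in every clone. Wars, a tRNA synthetase gene, had 53.3 to 105 CPM in high and 65.1 to 126 CPM in low clones, and Ppp2r5c, a phosphatase subunit gene, had 81.5 to 118 CPM in high and 75.9 to 90.1 CPM in low clones. Wdr25 had 2.30 to 4.99 CPM in high and 2.61 to 4.597 CPM in low clones. The imprinted genes of the cluster were at or near 0. Mirg had 2 counts in all, both in high 2. Dio3 had 12, of which 10 were in high 2, where it was at trace level (0.429 CPM). Beside Peg3, Usp29, which starts 0.147 kb away on the other strand and is also paternally expressed, had 1 count in all 10 libraries, while Clcn4, at 551.9 kb, had 34.8 to 56.1 CPM in high and 35.0 to 49.4 CPM in low clones. Zfp580, farther away at 1650 kb, had 3.46 to 11.7 CPM in high and 2.72 to 15.3 CPM in low clones.

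**Figure D3:**
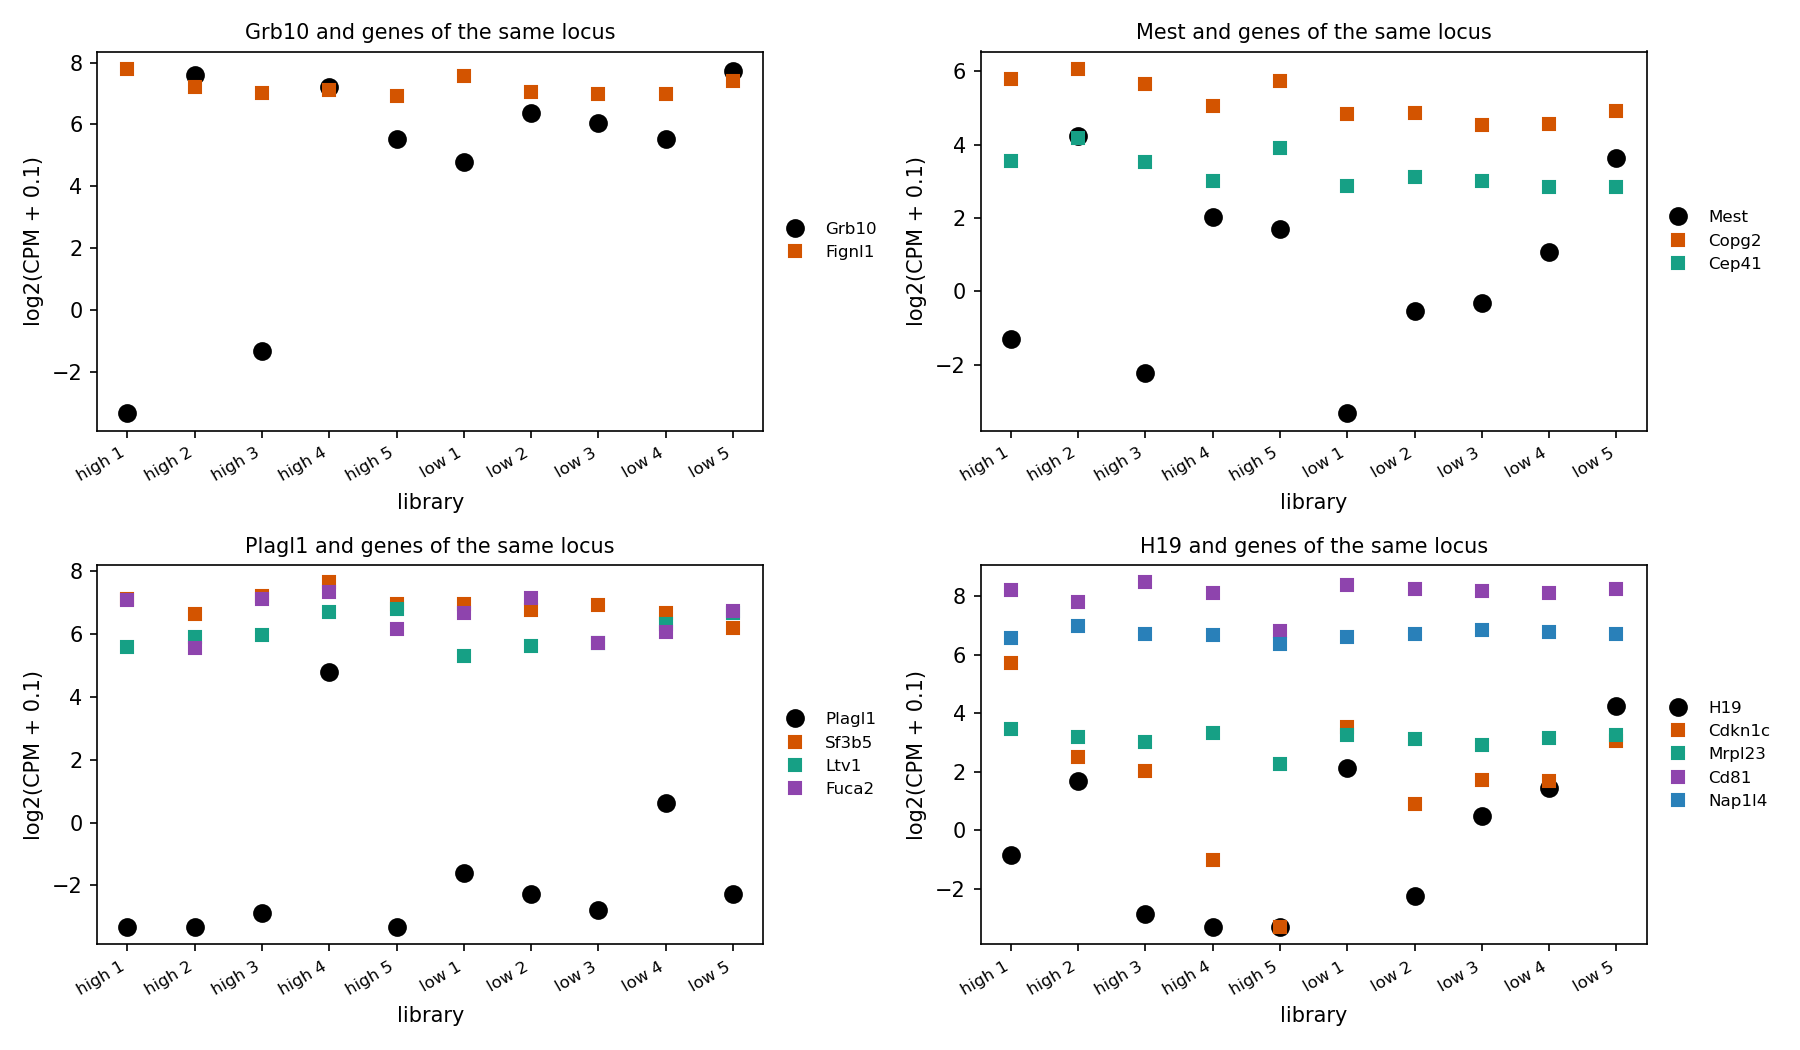
Loci of Grb10, Mest, Plagl1 and H19, each with a member (black circles) and genes of the same region (coloured squares), on the log2(CPM + 0.1) scale for each of the 10 libraries, high clones left of low clones. Grb10 is at 0 CPM in high 1, where Fignl1 has 223 CPM, and Plagl1 stands at 27.6 CPM in high 4 alone among the high clones.

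For the planned comparison of members that share distal chromosome 7 or distal chromosome 12, 3 of 6 pairs could be computed. Meg3 was not analysed here, and Dlk1 and Rian had at most 1 count. Cdkn1c lies in a different cluster of distal chromosome 7 from H19 and Igf2. Cdkn1c and H19 gave a Pearson r of 0.58 over 10 clones (permutation p = 0.0742, 0.223 adjusted over the 3 pairs) and a Spearman rho of 0.69 (permutation p = 0.0321, adjusted 0.0962). Neither passed after adjustment. The r was 0.78 without high 1 and high 5, the 2 clones farthest from the median of Cdkn1c. Within groups, on deviations from the group means, it was 0.58. Without high 1 alone it was 0.76 with a permutation p of 0.025 adjusted over the 3 pairs, so 1 clone decides the call. Without high 5 alone, the clone with 0 counts of both genes, it fell to 0.46 (permutation p = 0.378, adjusted). Igf2 and H19 had an r of -0.03 (permutation p = 0.936, adjusted 0.952) and a rho of -0.01 (permutation p = 0.979, adjusted 0.979). Without high 4 and low 5, the clones with the most Igf2, that r was -0.34, and within groups it was 0.10. Cdkn1c and Igf2 had an r of -0.02 (permutation p = 0.952, adjusted 0.952) and a rho of 0.10 (permutation p = 0.781, adjusted 0.979). The Cdkn1c and Igf2 value was -0.38 without high 1 and high 5 and 0.02 within groups.

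The genes most like each tested member over the 10 clones were listed by Pearson r of log2 CPM, as a description with no test. They share the libraries and their depth. For Grb10 they included Sephs2 (0.92) and Hjurp (0.91), for Cdkn1c they were Hnrnpa2b1 (0.95), Usp35 (0.95) and Isoc2b (0.94), for H19 they were Nfatc4 (0.90), Lig4 (0.89) and Lonrf1 (0.88), and for Mest they were Mthfd1 (0.91), Ears2 (0.91) and Orc2 (0.90). Several of them moved little in level: Hjurp, a centromere chaperone gene, had 162 to 293 CPM in high and 232 to 278 CPM in low clones. Isoc2b, on chromosome 7 like Cdkn1c, had 10.1, 3.39, 4.69, 0.954 and 0 CPM in high 1 to high 5, against 4.78, 1.09, 2.95, 2.26 and 2.45 CPM in low 1 to low 5. Like Cdkn1c, it was highest in high 1 and at 0 in high 5. Nfatc4, a calcium-regulated transcription factor gene, had 37.9, 57.3, 4.12, 3.50 and 4.09 CPM in high 1 to high 5, against 54.1, 9.66, 25.0, 39.2 and 42.8 CPM in low 1 to low 5. Its 4 lowest clones, high 3, high 4, high 5 and low 2, were the 4 in which H19 was not detected. Isoc2b and Nfatc4 were picked for their r with the member over these same clones. Such matches therefore follow largely from the choice.

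A list of 38 imprinted genes at other loci gave the wider picture. Of these, 32 were analysed and 24 tested; 19 were on in all 10 clones and 8 in none, and 4 were on in some clones and not detected in others (Snrpn, Mkrn3, Ppp1r9a and Sfmbt2). The test called 1 of the 24, Ampd3, against 4.86% of all tested genes, and the median log2 fold change of the list was 0.02, as it was over all tested genes (0.02). Ampd3, an AMP deaminase gene reported as imprinted in mouse placenta, fell to 6.18 ± 0.901 CPM in high clones, against 20.9 ± 4.599 CPM in low clones (SD, n = 5 each). Its log2 fold change was -1.76 with an SE of 0.21, the edgeR adjusted p was 0.003, and it was called in each of the 19 alternative fits. Igf2r, the receptor that clears IGF2 and is maternally expressed in mouse, had 198 ± 14.2 CPM in high and 199 ± 39.5 CPM in low clones, and Gnas, the stimulatory G protein gene, had 1627 ± 540 CPM in high and 1534 ± 197 CPM in low clones. The paternal genes Ndn, Magel2, Nnat and Rasgrf1 were at or near 0 in all clones.

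Among the genes of this list, 3 were chosen for naming after their values were seen. Snrpn, a splicing protein gene whose transcript also carries Snurf, had 5.88, 6.35, 6.08, 2.98 and 3.62 CPM in high 1 to high 5, against 0, 1.25, 0, 1.71 and 0.217 CPM in low 1 to low 5. The groups did not overlap, but the log2 fold change of 2.94 (SE 0.98) did not pass edgeR's test (adjusted p = 0.110), while DESeq2 (adjusted p = 0.0174) and limma-voom (adjusted p = 0.0273) called it. Peg10, a paternally expressed gene derived from a retrotransposon, had 40.9, 1061, 360.5, 37.9 and 77.1 CPM in high 1 to high 5, against 60.3, 176, 262, 82.7 and 112 CPM in low 1 to low 5. Its log2 fold change was 1.19 (edgeR adjusted p = 0.480) and -0.10 without high 2. Its neighbour Sgce, also paternally expressed and read from the same promoter region, had 36.6 ± 14.5 CPM in high and 65.6 ± 5.87 CPM in low clones, without overlap. Its log2 fold change of -0.84 did not pass edgeR's test (adjusted p = 0.0746), while DESeq2 (adjusted p = 0.0195), limma-voom (adjusted p = 0.0486) and edgeR with the chromosome offset (log2 fold change -1.18, adjusted p = 0.0183) called it.

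**Figure D4:**
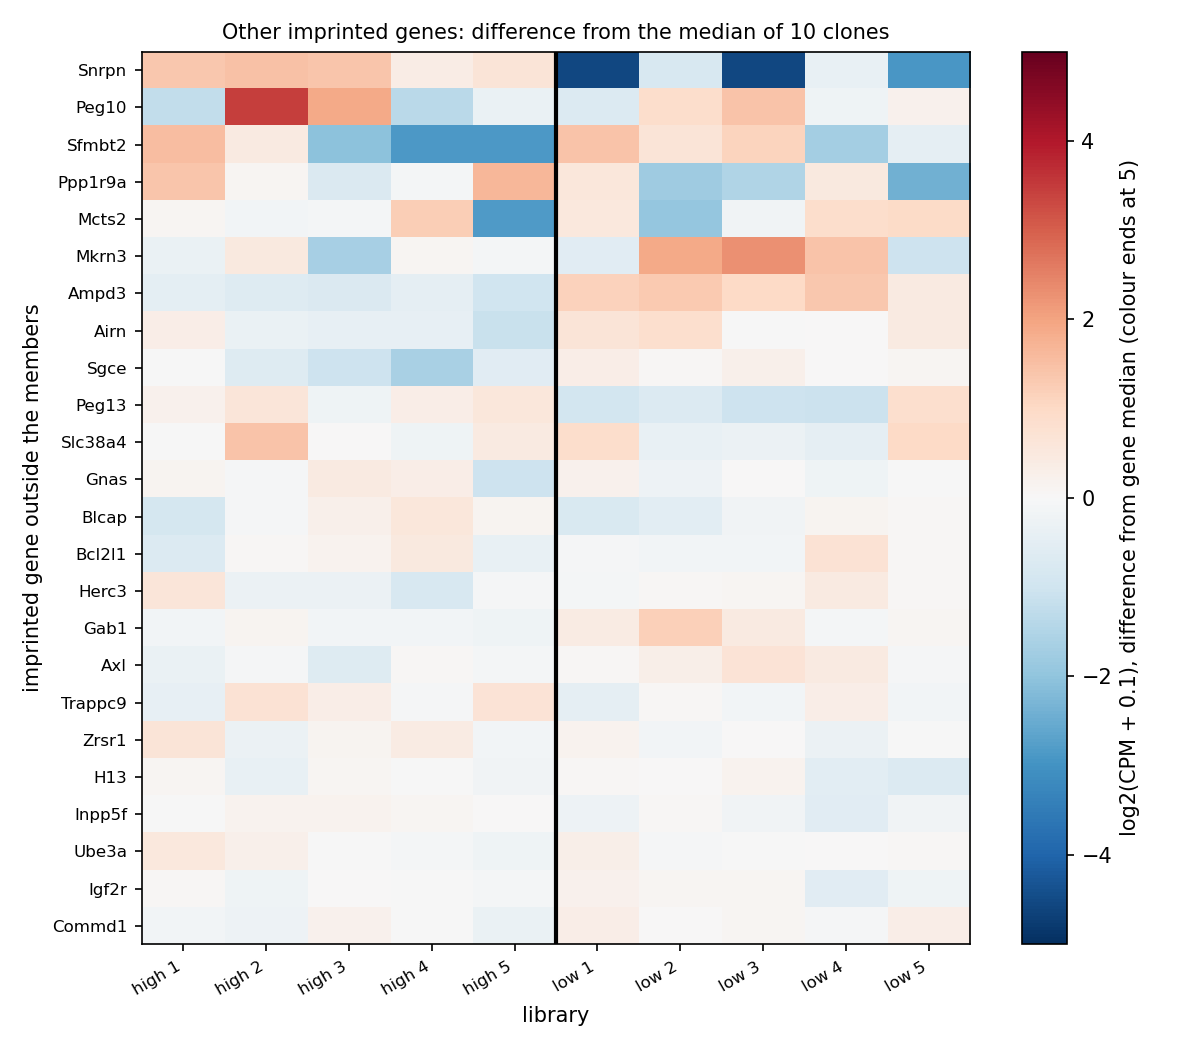
Heat map of the 24 imprinted genes at other loci that were on in at least 1 clone (rows, ordered by their span), as the difference on the log2(CPM + 0.1) scale from the gene's median of 10 libraries, with high clones left of the black line. Snrpn is low in low 1 and low 3, and Peg10 is high in high 2. Rows from Gnas downward are pale in most clones.

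Of 26 genes of IGF signalling and its cell cycle targets, 25 were tested, 1 rose and 0 fell, while 1.99% of all tested genes rose and 2.87% fell. The 1 was Igf2bp3, an RNA-binding protein of the family named for its binding to Igf2 mRNA. It had 65.5 ± 27.6 CPM in high and 25.4 ± 9.09 CPM in low clones (SD, n = 5 each). Its log2 fold change was 1.37 with an SE of 0.35 and an edgeR adjusted p of 0.049. The call was lost in 14 of 19 alternative fits, and with the chromosome 6 shift taken out the log2 fold change was 1.05 (edgeR adjusted p = 0.132). The receptor Igf1r had 14.3 ± 4.43 CPM in high and 15.2 ± 2.81 CPM in low clones, and the insulin receptor Insr had 31.6 ± 10.3 CPM in high and 51.3 ± 9.04 CPM in low clones. The log2 fold change of Insr was -0.70 (edgeR adjusted p = 0.101). DESeq2 (adjusted p = 0.0422) and the fit with the replicate number as a block (adjusted p = 0.0443) called it. Insr lies on chromosome 8, and with chromosome shifts taken out the value was -0.14 (edgeR adjusted p = 0.787). The ligand Igf1 was on in high 2 alone, at 4.77 CPM. The 2 relatives of Cdkn1c stayed on in all clones, Cdkn1a at 134 ± 105 CPM in high and 143 ± 48.9 CPM in low clones, and Cdkn1b at 119 ± 38.3 CPM in high and 93.8 ± 21.8 CPM in low clones.

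Of 23 factors that set or keep imprints, 21 were analysed, 20 tested and 0 called by edgeR, with 3 at an unadjusted p under 0.05; DESeq2 called 2 and limma-voom 0. Over all genes these shares were 4.86% (edgeR), 21.6% (unadjusted), 11.4% (DESeq2) and 5.1% (limma-voom). The maintenance methyltransferase Dnmt1 had 464 ± 54.2 CPM in high and 487 ± 40.3 CPM in low clones, and the corepressor Trim28 had 319 ± 92.4 CPM in high and 353 ± 51.2 CPM in low clones. The smallest p was that of Ctcf, the insulator protein that binds between Igf2 and H19, at 102 ± 17.9 CPM in high and 143 ± 12.5 CPM in low clones. Its log2 fold change was -0.48 (edgeR adjusted p = 0.085). With chromosome shifts taken out it turned to 0.10, and Ctcf lies on chromosome 8. Zfp57, the zinc finger protein named above, had 36.6, 30.2, 4.84, 18.7 and 14.0 CPM in high 1 to high 5, against 62.6, 42.9, 35.3, 48.9 and 44.8 CPM in low 1 to low 5. The groups overlapped through high 1, which lay above low 3, and the log2 fold change was -1.17 (SE 0.43, edgeR adjusted p = 0.137, DESeq2 adjusted p = 0.0439). Zfp445, a zinc finger gene with a related role, had 20.7 ± 6.09 CPM in high and 24.6 ± 6.51 CPM in low clones.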

How the data were processed

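Polyadenylated RNA of 10 mouse fibroblast clones was analysed from the deposited table of raw counts, which the authors made with 1 column of whole read counts per library and Ensembl gene. STAR 2.7.8a, DESeq2 1.36.0 and R 4.2.1, with the build GRCm38, appear in the submitters' processing notes without a stated role. The sources used here do not name the counting tool. Gene names came from GENCODE M21 (GRCm38).

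Groups were compared as high over low with edgeR 4.0.16 in R 4.3.3 (expression filter by group, TMM scaling, robust quasi-likelihood test, two-sided, Benjamini-Hochberg over all 12964 tested genes, threshold 0.05). CPM are TMM-scaled. The SE was derived from the log2 fold change and the F statistic. Correlations were computed on log2 CPM (prior count 2) with 100000 permutations. A chromosome's shift is the median difference of its genes from their medians over the libraries. Alternatives were RLE and upper-quartile scaling, 2 filters, DESeq2 1.42.0, limma-voom (limma 3.58.1), a chromosome offset, the replicate number as a block, each library left out, and low 2 and low 3 left out together. Scripts were tested on simulated counts.

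The members and lists were chosen with earlier results of these data known. Named are all members, tested neighbours, called list genes, or the 2 with the smallest p where a list had none, and the 3 genes most like each tested member. Among these last, 1 gene is not reported here. Other genes named, such as Dnmt1, Igf2r, Insr and Cdkn1a, are outside that rule and were picked with their values known. The floors of 3 counts cover counting error only.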

Additional observations from a re-analysis of the deposited data

Results flagged for a closer look

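In groups of 5 clones, a clone was singled out where its gap to the nearest other clone exceeded 0.71 of the group's whole range (Dixon's test at 95%). Of 62 groups tested, 12 gave such a clone. The test's nominal rate of about 5% of groups assumes normally distributed values. The test was applied to CPM, and some members were near the floor in most clones of a group. The genes were also chosen with earlier results known, so no excess over chance is read from the 12. Most of the 12 were clones in which a member was on. Among the high clones, Cdkn1c stood out in high 1 at 52.6 CPM, H19 in high 2 at 3.09 CPM, Mest in high 2 at 18.8 CPM and Plagl1 in high 4 at 27.6 CPM. Among the low clones, H19 stood out in low 5 at 18.9 CPM, Mest in low 5 at 12.2 CPM and Plagl1 in low 4 at 1.42 CPM.

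Of the neighbours, Kcnq1ot1 at 12.3 CPM, Phlda2 at 3.65 CPM and Fignl1 at 222.7 CPM stood out in high 1, the first 2 in the same clone and cluster as Cdkn1c. Cobl stood out in low 5 at 4.30 CPM. Igf2bp3 stood out in low 1, where it was low at 9.44 CPM, against 26.8 to 31.6 CPM in the other low clones. The causes were not tested.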

How the results depend on the processing

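No tested member was called in any of the 19 alternative fits. The number of genes called over all genes, 630 in the main setting, was 1475 with DESeq2, 165 with the chromosome offset, 56 without low 2 and low 3 together, and 232 to 821 when 1 clone was left out. Of the genes in the other lists, 3 were called, and this was 9 with DESeq2, 1 without low 2 and low 3 together and 1 to 5 when 1 clone was left out. Tested were 24 imprinted genes at other loci, 25 of IGF signalling and 20 imprint factors. Tested neighbours numbered 9 (distal chromosome 7), 3 (distal chromosome 12), 2 (Peg3), 2 (Mest), 4 (Plagl1) and 2 (Grb10). Over all tested genes, edgeR called 4.86% and DESeq2 11.4%. With the replicate block, 577 genes, 0 members and 3 list genes were called, and Cdkn1c turned to -0.45. Same-numbered clones of the 2 groups correlated at 0.46, -0.05, 0.03, 0.07 and 0.16, and pairs 1 and 5 alone correlated best with their own number, so the numbers were not taken to pair the clones. Other reversals on the log2 scale were Cdkn1c with limma-voom (-1.71) and Ctcf with the chromosome offset (0.10). Leaving out 1 clone moved Cdkn1c between -1.14 and 1.63, Mest between -0.71 and 2.65, Grb10 between -0.83 and 0.48, H19 between -5.53 and -1.53 and Peg10 between -0.10 and 1.55. Without low 2 and low 3 together, Copg2 had an adjusted p of 0.112. At 5 CPM, H19 was on in 1 clone, Mest in 2, Plagl1 in 1 and Cdkn1c in 4. At 0.5 CPM, Igf2 was on in 2 clones and Mest in 7, against 5 for Mest at 1 CPM. Leaving out 1 clone moved the r of Cdkn1c and H19 between 0.46 and 0.76, of Igf2 and H19 between -0.52 and 0.25, and of Cdkn1c and Igf2 between -0.43 and 0.23. The last pair had an r of 0.11 with a prior count of 0.5. The causes were not tested.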
